A study of Mus musculus with 2 samples.

Results

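Type I interferon-stimulated genes are the genes that a cell switches on after interferon-alpha or interferon-beta binds its receptor. The list studied here named 40 of them in mouse, and 39 were found by symbol among the 27998 genes of the deposited tables, with Mx2 not analysed here. The series holds 2 single-cell libraries of abdominal aorta from wild-type C57BL/6J mice, taken 2 weeks after an injection into the peritoneum. The mice of the LCWE library received LCWE, the Lactobacillus casei cell wall extract used to model Kawasaki disease vasculitis, and 7 aortas were pooled. The mice of the PBS library received phosphate-buffered saline, and 9 aortas were pooled. With 1 library in each group, and animals within a pool not told apart, no test between the conditions was possible, and each 95% interval below covers counting error only.

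Type I interferons signal through the receptor chains Ifnar1 and Ifnar2 and the kinases Jak1 and Tyk2. These lead to a complex that holds Stat2 and Irf9 and binds a GAAA-rich element in the promoters of responsive genes. The products sense viral nucleic acid (Ifih1, Ddx58, Dhx58, Zbp1), sustain the signal (Irf7, Irf9, Stat2), block viral RNA (the Ifit and Oas families, Eif2ak2), act at membranes (Bst2, Ifitm3) or on metabolism (Rsad2, Cmpk2), or attach and remove the ubiquitin-like protein Isg15 (Herc6, Usp18). Many of the same genes also answer interferon-gamma, the T and NK cell product, so a raised level does not by itself name the ligand.

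The binding element can be read in the promoters, which are shown because the genes printed here are ones whose levels the results below turn on. The motif searched was GAAANNGAAA on both strands, which reads TTTCNNTTTC on the other, within 250 bases before and 50 after the start of each gene (RefSeq, GRCm38.p6). Overlapping matches were each counted, and capitals mark the matched bases. Each window runs 5′ to 3′ along the strand of its gene. Isg15 is the ubiquitin-like modifier, Ifit1 and Ifit3 bind foreign RNA, Rsad2 (viperin) makes an antiviral nucleotide, Oas1a makes the activator of RNase L, and Bst2 (tetherin) holds virions at the cell surface.
Isg15, chr4:156200855-156200916, minus strand: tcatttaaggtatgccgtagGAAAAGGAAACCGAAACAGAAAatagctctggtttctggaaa
Ifit1, chr19:34640765-34640833, plus strand: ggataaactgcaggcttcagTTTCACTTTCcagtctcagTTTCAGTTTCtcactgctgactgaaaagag
Ifit3, chr19:34583353-34583436, plus strand: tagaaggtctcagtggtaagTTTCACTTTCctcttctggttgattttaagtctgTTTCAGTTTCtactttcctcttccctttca
Rsad2, chr12:26456543-26456592, minus strand: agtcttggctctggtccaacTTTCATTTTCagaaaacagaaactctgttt
Oas1a, chr5:120907526-120907565, minus strand: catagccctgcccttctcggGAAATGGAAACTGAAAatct
Bst2, chr8:71537567-71537622, minus strand: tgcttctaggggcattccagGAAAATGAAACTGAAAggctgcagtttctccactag

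Of the 40 listed genes, 30 were in the promoter table and 15 of those held the motif, or 50%, against 1079 of 27025 genes (3.99%). At least 2 matches were found for 6 of them (Isg15, Ifit1, Ifit3, Oas1a, Bst2 and Ifitm3) and for 72 genes in all (0.266%). The first match in the Isg15 window began 78 bases before the start and that of Ifit1 104 bases before it. A match is a description of the letters and not evidence of binding in these cells.

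The LCWE library held 5091 cells and 42275754 UMIs (unique molecular identifiers, each standing for 1 captured RNA molecule), with a median of 5508 UMIs per cell. The PBS library held 5386 cells and 62600808 UMIs, with a median of 11252.5. Because the assay counts each molecule once at its 3′ end, levels are given in CPM, UMIs of a gene scaled to 1000000 UMIs of its class, with no scaling for transcript length. The 39 genes summed to 3868 CPM over LCWE cells and 731 CPM over PBS cells, but the libraries differ in their cell types, so classes were compared by the authors' annotation. Ifitm3 alone gave 64327 of the LCWE UMIs, Ifi27l2a 25984 and Bst2 11258. These 3 are abundant in several resting cell types, so a sum over the other 36 was kept beside the full sum.

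The type I interferon genes of the list were themselves almost absent. Ifnb1 had 1 LCWE UMI, in a fibroblast, and 2 PBS UMIs, in the monocyte, macrophage and dendritic cells. The other type I interferon genes of the list (Ifna1, Ifna2, Ifna4, Ifna5, Ifna13, Ifnk and Ifne) had 0 UMIs in every class of both libraries. In LCWE fibroblasts a count of 0 allows up to 0.369 CPM on the 95% interval. Ifng, the interferon-gamma gene, had 1438 UMIs after LCWE and 86 after PBS. Within the T and NK class it was not higher after LCWE: 127 CPM (120.5 to 134) against 204 CPM (163 to 253). That class held 2198 LCWE and 75 PBS cells of another mix, with 280 naive CD8 T cells in LCWE and 1 in PBS. The part of this mix in the Ifng level was not tested.

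The receptor was read in every class compared. Between the libraries, fibroblasts differed little in Ifnar2 and Jak1, and Ifnar1 was higher after LCWE, though within 2-fold. In fibroblasts Ifnar1 was 40.5 CPM in LCWE and 25.1 in PBS, a ratio of 1.61 (1.33 to 1.95). Ifnar2 was 78.7 and 86.9 CPM, and Jak1 262 and 259 CPM, a ratio of 1.01 (0.952 to 1.08). In blood endothelial cells (BEC in the annotation) Ifnar1 was 40.7 CPM in LCWE and 18.6 in PBS, a ratio of 2.19 (1.46 to 3.36), and Jak1 had a ratio of 2.21 (1.82 to 2.71).

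Across the LCWE classes the sum of the 36 genes spanned from 461 CPM in the proliferating VSMC_2 cells to 3282 CPM in the class annotated Eosinophil. That class came first (3282 CPM, 3147 to 3421, 142 cells), Mono1 monocytes second (2653 CPM, 2585 to 2723, 281 cells) and Neutrophil after it (2377 CPM, 2249 to 2509, 62 cells). The 3 steps from the first class down to activated CD8 T cells at 1951 CPM (1879 to 2026) had intervals that did not overlap. Below them every neighbour overlapped the next, from activated CD8 T cells through DC3 dendritic cells (1900 CPM), fibroblasts (1801 CPM), regulatory and activated CD4 T cells (1715 CPM), lymphatic endothelial cells (LEC, 1610 CPM), Mac1 macrophages (1544 CPM) and B cells (1265 CPM) to blood endothelial cells (810 CPM). Single genes gave large parts of some of these sums: Isg15 927 CPM in the first class, Epsti1 493 and Sp100 303 CPM in activated CD8 T cells, and Epsti1 577 CPM in DC3. Of the PBS classes of the fine annotation with at least 20 cells, lymphatic endothelial cells were the highest at 1278 CPM (1167 to 1396, 29 cells). Activated CD8 T cells stood at 1767 CPM (1475 to 2099) in PBS, on 15 cells, so their LCWE level was not set apart from PBS. In LCWE, VSMC_2, called transitional smooth muscle and fibroblast cells in the broad annotation, stood lower at 598 CPM (578 to 618).

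The markers of the leading class bore out its label only in part. Of 5 eosinophil markers, Il5ra, Prg2 and Epx had 0 UMIs there and the list summed to 0.303 UMIs per cell, from Siglecf and Ccr3. In the broad myeloid class, which joins it with Neutrophil, the list stood at 38.2 CPM. That was the highest of the broad LCWE classes, with B cells next at 6.65 CPM. In the leading class the neutrophil list (S100a8, S100a9, Retnlg, Csf3r, Mmp8) summed to 242 UMIs per cell, or 50443 CPM, against 215961 CPM in the class annotated Neutrophil. The leading class is called the Eosinophil-annotated class here, with no other name given. The fibroblast label held: Pdgfra, Dcn, Col1a1, Lum and Dpt summed to 24821 CPM in LCWE fibroblasts and 34494 CPM in PBS fibroblasts.

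**Figure D1:**
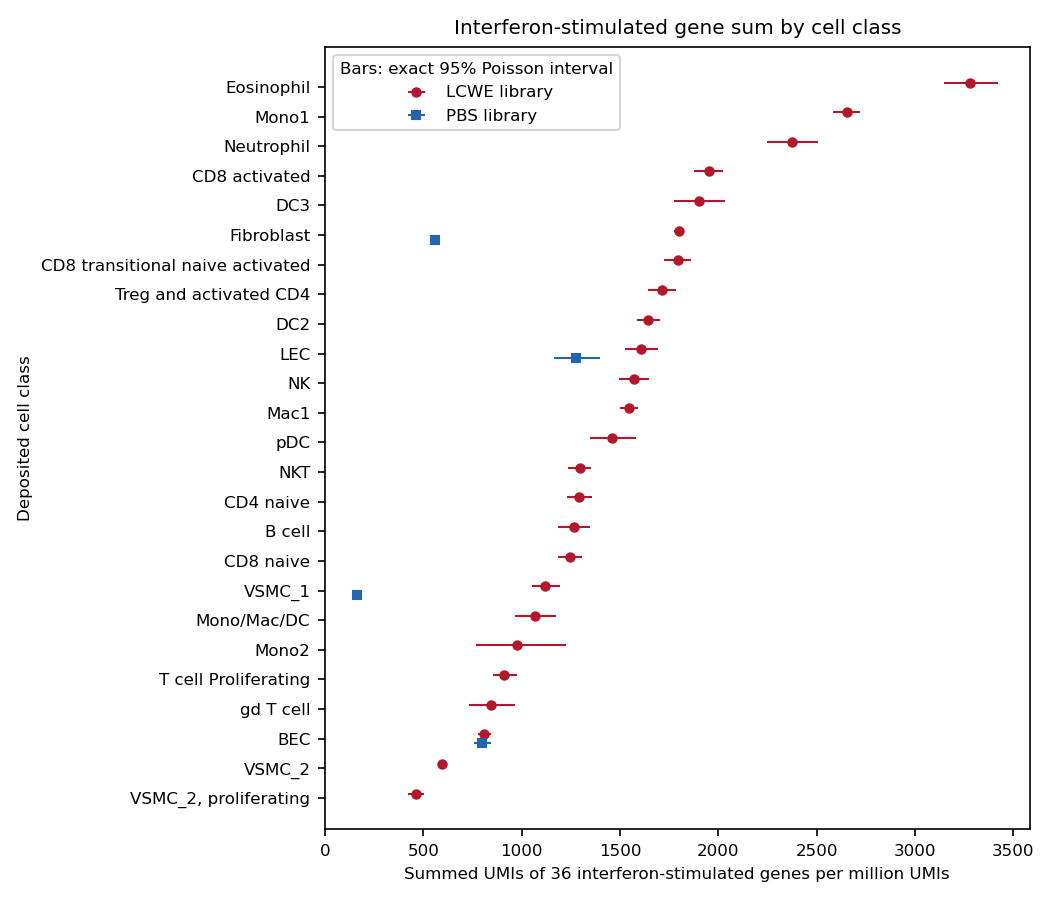
Level of the 36 interferon-stimulated genes without Ifitm3, Ifi27l2a and Bst2 in each annotated class (vertical axis) with at least 20 cells, in CPM on the horizontal axis, with red circles for LCWE, blue squares for PBS and bars for the exact 95% Poisson interval. The Eosinophil-annotated class (3282 CPM), Mono1 (2653 CPM) and Neutrophil (2377 CPM) lie above the other LCWE classes.

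With all 39 genes the order was another. Mono1 (8984 CPM, 8857 to 9112) and lymphatic endothelial cells (8887 CPM, 8691 to 9085) led with overlapping intervals, and the Eosinophil-annotated class had 5096 CPM. Ifitm3, which keeps virus from fusing with endosomes, gave 59.5% of the lymphatic endothelial sum, at 5284 CPM, and 47.7% of the Mono1 sum, at 4290 CPM. Bst2 gave 55.7% of the sum in plasmacytoid dendritic cells (pDC, 47 cells), at 3360 CPM, where it is a known surface marker. Ifi27l2a gave 47.3% of the sum in regulatory and activated CD4 T cells, at 1856 CPM. In each of these 4 classes 1 gene was the largest single part of the full sum.

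The members did not share 1 leading class. Among the 21 LCWE classes with at least 50 cells, Mono1 had the highest level of the sensors Zbp1 (128 CPM) and Dhx58 (27.0 CPM) and of the transcription factor Irf7 (185 CPM). The Eosinophil-annotated class led for Isg15, at 927 CPM against 334 CPM in DC3, the next class. It also led for Trim30a (227 CPM), Rtp4 (174 CPM), Oasl2 (160 CPM), Isg20 (141 CPM) and Oas3 (110 CPM). Neutrophil led for Rsad2 (270 CPM), Ifit1 (199 CPM) and Samd9l (162 CPM).

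Non-myeloid classes led for others. Fibroblasts were highest for Oas2 (36.9 CPM), Slfn5 (100 CPM, with Mono1 at 98.9 CPM) and Stat2 (40.8 CPM). Lymphatic endothelial cells were highest for Ifi44, at 94.9 CPM (75.7 to 117) against 22.7 CPM in fibroblasts, the next class. Activated CD8 T cells led for Sp100 (303 CPM), a nuclear body protein, and DC3 for Epsti1 (577 CPM), with activated CD8 T cells second at 493 CPM. Epsti1 was lowest in fibroblasts (8.71 CPM) and Sp100 in lymphatic endothelial cells (10.2 CPM).

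**Figure D2:**
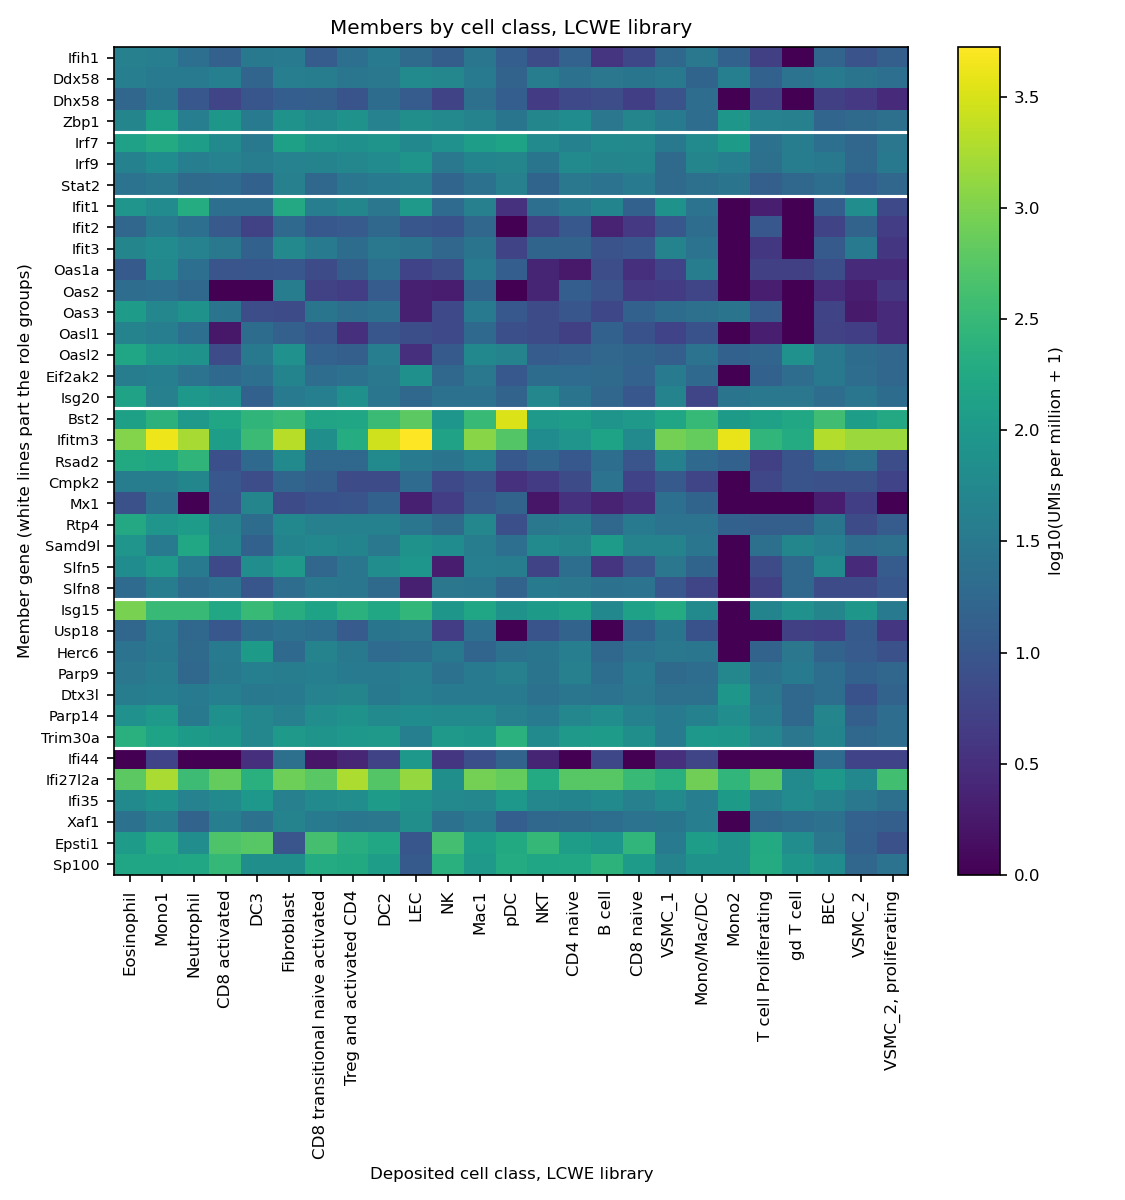
Level of each of the 39 genes (rows, grouped by role) in the LCWE annotated classes (columns), as color on a log10(CPM + 1) scale. Columns are ordered by the 36-gene sum, and white lines part the roles. Isg15 peaks in the Eosinophil-annotated class (927 CPM), Ifi44 in lymphatic endothelial cells (94.9 CPM) and Epsti1 in DC3 (577 CPM).

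Each gene's class profile was also set beside the summed level of the other members over the same 21 classes, as a description. Against the sum of the other genes among the 36, Dtx3l (a ubiquitin ligase partner of Parp9) had a Spearman rho of 0.83, Irf7 0.79, Rtp4 0.77 and Isg15 0.75. Ifi44 had -0.14 and Epsti1 -0.01. Outside the lists the genes with the closest profile to the sum of the 36 were Trim30d (0.80), Cpeb2 (0.80), Adam30 (0.77), Trim12c (0.76) and Zfp217 (0.76). All classes came from 1 library and share its depth and free RNA.

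Between the libraries, fibroblasts carried the clearest difference. Their 36-gene sum was 1801 CPM in LCWE (813 cells) and 560 CPM in PBS (868 cells), 3.22-fold higher (3.10 to 3.34). The 39-gene sum was 5053 against 2034 CPM, 2.48-fold higher (2.44 to 2.53). Of 39 members, all with at least 20 UMIs over both libraries, 30 were at least 2-fold higher and 0 at least 2-fold lower, beside 10.4% and 7.31% of 12357 measured genes. The same shares stand beside the fibroblast counts of each role group below. The median log2 ratio of the members was 1.53, and that of all measured genes 0.04.

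Among the sensors, Zbp1, which binds left-handed nucleic acid, was 78.2 CPM in LCWE fibroblasts and 10.4 in PBS fibroblasts, 7.55-fold higher (5.84 to 9.93). Ifih1 (MDA5) was 31.6 and 16.4 CPM, a ratio of 1.93 (1.53 to 2.44). Ddx58 (RIG-I) was 38.1 and 20.5 CPM, a ratio of 1.85 (1.51 to 2.29). Both RNA helicases stayed just short of 2-fold, and the regulator Dhx58 (LGP2) was 6.59-fold higher (3.55 to 13.6).

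Of the signalling genes, Irf7, which drives later interferon-alpha genes, was 130 CPM in LCWE and 26.3 in PBS, 4.96-fold higher (4.20 to 5.88). Stat2 was 40.8 and 16.9 CPM, 2.41-fold higher (1.94 to 3.02). Irf9 was 44.0 and 24.5 CPM, a ratio of 1.80 (1.49 to 2.18), so the DNA-binding subunit of the complex was within 2-fold.

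Of the 10 RNA-binding effectors 8 were at least 2-fold higher. Ifit1 was 178 CPM in LCWE and 37.3 in PBS, 4.78-fold higher (4.16 to 5.51). Oasl2 was 76.2 and 17.3 CPM, 4.42-fold higher (3.60 to 5.47), and the kinase Eif2ak2 (PKR) 46.7 and 16.9 CPM, 2.76-fold higher (2.22 to 3.45). Ifit2, a neighbour of Ifit1 on chromosome 19, was within 2-fold, at 17.8 and 15.9 CPM (ratio 1.12, 0.868 to 1.45), as was the nuclease Isg20 (1.18, 0.980 to 1.43).

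The Oas group was nearly unseen in PBS fibroblasts. Oas2 had 368 UMIs in LCWE and 2 in PBS, a ratio of 112 with a counting interval of 30.8 to 929. Oasl1 had 130 and 3 UMIs (26.4, 8.84 to 130.3), Oas3 62 and 2 (18.9, 5.01 to 159) and Oas1a 92 and 4 (14.0, 5.29 to 52.5). The intervals are wide because the PBS counts are this low.

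At membranes and in metabolism 7 of 9 members were at least 2-fold higher. Bst2 was 323 CPM in LCWE and 126 in PBS, 2.57-fold higher (2.38 to 2.79), and Ifitm3 2126 and 1009 CPM, 2.11-fold higher (2.05 to 2.17). Rsad2 was 57.7 and 2.47 CPM, 23.4-fold higher (14.1 to 42.1). Samd9l was 47.0 and 25.0 CPM, a ratio of 1.88 (1.56 to 2.27). Cmpk2, which lies next to Rsad2 on chromosome 12, was 15.4 and 12.8 CPM, a ratio of 1.20 (0.910 to 1.60), unlike its neighbour.

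In the ubiquitin-like and ADP-ribosyl system 6 of 7 members were at least 2-fold higher. Isg15 was 209 CPM in LCWE and 55.2 in PBS, 3.78-fold higher (3.37 to 4.25). The restriction factor Trim30a was 103 and 27.4 CPM, 3.74-fold higher (3.18 to 4.44), and Parp14 40.2 and 18.9 CPM, 2.12-fold higher (1.72 to 2.64). Herc6, the mouse ligase for Isg15, was within 2-fold at 1.94 (1.43 to 2.66), and Usp18, which removes Isg15 and dampens the receptor, was 2.80-fold higher (2.07 to 3.86).

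Of the other 6 members 5 were at least 2-fold higher. Ifi27l2a was 803 CPM in LCWE and 339 in PBS, 2.37-fold higher (2.26 to 2.49), and Sp100 71.1 and 23.3 CPM, 3.05-fold higher (2.54 to 3.67). Ifi44 had 227 and 2 UMIs (69.2, 18.9 to 575), and Epsti1 87 and 2 UMIs (26.5, 7.12 to 222). Ifi35 was within 2-fold at 1.40 (1.17 to 1.68).

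**Figure D3:**
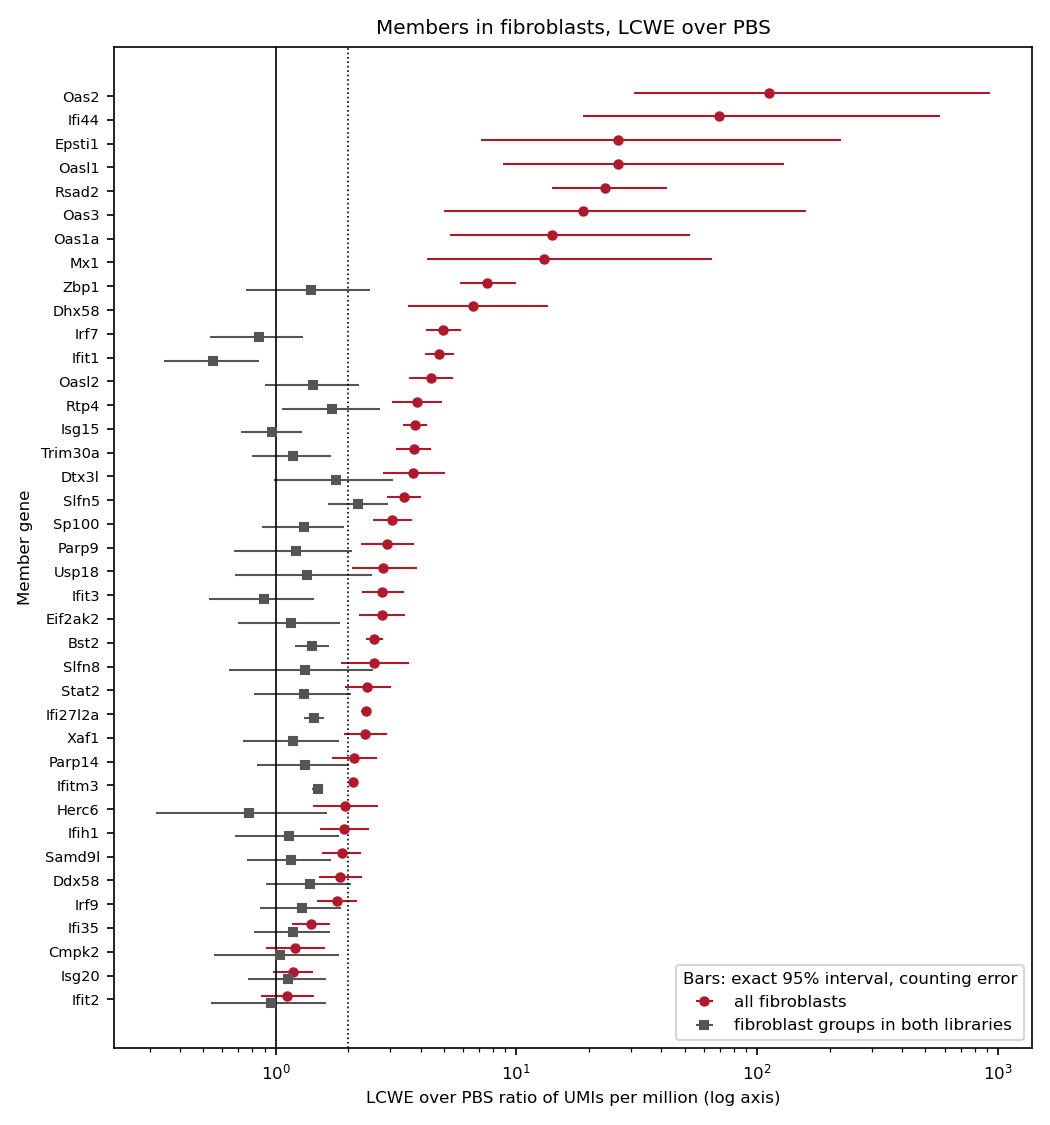
LCWE over PBS ratio of the genes in fibroblasts (vertical axis, ordered by ratio) on a log axis, with bars for the 95% counting interval, a solid line at 1 and a dotted line at 2. Red circles are all fibroblasts and gray squares the cells of groups that both libraries share, for the 30 genes measured there. Of the 39 circles 30 lie beyond 2-fold higher and 1 square, Slfn5, does. The widest bars belong to Oas2, Oas3, Ifi44 and Epsti1, each with 2 PBS UMIs.

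Genes of other cell types were also higher in the LCWE fibroblast barcodes. The neutrophil list was 360 CPM in LCWE and 2.30 in PBS, the T cell list 18.9 and 5.09, the macrophage list 62.1 and 9.53, and the erythroid list 1129 and 54.4 CPM. How much RNA from other cells added to the levels of members or pathway genes was not tested.

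Fibroblasts were regrouped without any gene of the interferon lists. Interferon-responsive genes outside the lists were not left out, so the groups are not independent of the response. Groups 1 and 3 held cells of both libraries. In these shared groups the 36-gene sum was 677 CPM in 159 LCWE cells and 557 CPM in 864 PBS cells, a ratio of 1.22 (1.12 to 1.32). The direction differed between the groups. Group 1 had 489 CPM (410 to 580) in 40 LCWE cells and 390 CPM (370 to 411) in 511 PBS cells, and group 3 had 736 CPM (679 to 796) in 119 LCWE cells and 787 CPM (753 to 822) in 353 PBS cells, so the pooled ratio also carries the unequal shares of the groups. Of 30 members measured 1 was at least 2-fold higher, Slfn5, and 0 lower, beside 3.74% and 3.89% of all genes. Slfn5 had 64.4 CPM in LCWE and 29.2 in PBS (2.21, 1.65 to 2.92), while Isg15 had a ratio of 0.968 (0.719 to 1.28) and Ifit1 0.552 (0.343 to 0.850). The median log2 ratio of the members was 0.32, and that of all genes 0.04.

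Groups 2 and 4 were almost only LCWE cells, with 2 PBS cells in each. Their 654 LCWE cells had 1943 CPM, 3.47-fold (3.34 to 3.60) the level of all PBS fibroblasts, and 32 of 39 members passed 2-fold upward and 0 downward, beside 10.8% and 8.1% of all genes. These comparisons use the same PBS cells. The groups were defined on these cells, so cell state and condition cannot be told apart in groups 2 and 4. Chl1, a neural adhesion gene seen mainly in those groups, split the class in a similar way: LCWE fibroblasts with a Chl1 UMI (481 cells, median 14431 UMIs) had 2061 CPM, with 33 of 39 members at least 2-fold higher and 0 lower beside 10.4% and 8.84% of all genes, and those without (332 cells, median 7502.5 UMIs) 1194 CPM. In the cells without a Chl1 UMI the sum was still 2.13-fold (2.03 to 2.24) that of PBS fibroblasts, with 22 of 37 members at least 2-fold higher and 0 lower, beside 6.48% and 5.26% of all genes. A deeper cell is more likely to show a Chl1 UMI, and the depths of the 2 sets differ.

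Blood endothelial cells showed no such shift of the sum. It was 810 CPM in LCWE (239 cells) and 798 CPM in PBS (217 cells), a ratio of 1.01 (0.948 to 1.09). Of 34 members measured 9 were at least 2-fold higher and 1 lower, beside 11.5% and 6.36% of all genes, with a median log2 ratio of -0.04 against 0.06. Single members moved apart. Epsti1 had 87 and 1 UMIs (48.7, 8.52 to 1947), Ifi44 56 and 1 (31.4, 5.41 to 1261) and Rsad2 52 and 2 (14.6, 3.84 to 123). Isg20 was 20.5 and 5.40 CPM, 3.80-fold higher (1.87 to 8.70), and Ifi27l2a 96.2 and 24.6 CPM, 3.91-fold higher (2.81 to 5.56).

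Other members were level or lower in the same cells. Isg15 was 48.8 and 45.0 CPM in blood endothelial cells, a ratio of 1.08 (0.814 to 1.45), and Ifit1 12.1 and 13.8 CPM, 0.877 (0.506 to 1.55). Ifih1 was 15.1 and 30.6 CPM, a ratio of 0.494 (0.324 to 0.753). The T cell list was 81.7 CPM in LCWE and 4.80 in PBS blood endothelial cells, and the erythroid list 4691 and 61.8 CPM; their part in single members was not tested. Over all endothelial cells the 36-gene ratio was 1.12 (1.06 to 1.18), with 10 of 36 members higher and 0 lower, beside 10.2% and 5.66% of all genes.

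T and NK cells were few in PBS (75 cells, 406551 UMIs), against 2198 in LCWE. The sum was 1480 CPM in LCWE and 1373 in PBS, a ratio of 1.08 (0.991 to 1.18). The NK list was 2258 CPM in LCWE and 6836 in PBS, the neutrophil list 133 and 4.92 CPM and the erythroid list 2922 and 71.3 CPM. The mix of subtypes differed as well, with 280 naive CD8 T cells in LCWE and 1 in PBS, and the part of either in the ratios was not tested. Of 38 members measured 7 were at least 2-fold higher and 0 lower, beside 3.28% and 7.97% of all genes, with a median of 0.28 against -0.19. Of these, Ifitm3 was 122 and 29.5 CPM, 4.12-fold higher (2.35 to 7.99), and Ifi27l2a 609 and 271 CPM, 2.25-fold higher (1.86 to 2.74). Isg20 had 437 and 2 UMIs (8.55, 2.35 to 70.9), Ifit3 186 and 1 (7.28, 1.29 to 289) and Ifit1 261 and 3 (3.41, 1.15 to 16.6). Isg15, at 135 and 130 CPM, had a ratio of 1.03 (0.786 to 1.39).

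The smooth muscle class VSMC_1 gave the largest ratio of the classes compared, and it changed most with the choice of cells. Its 93 LCWE cells had 1121 CPM and its 4141 PBS cells 164 CPM, 6.84-fold, with 30 of 33 members at least 2-fold higher and 0 lower, beside 12.4% and 3.6% of all genes. Of the 93, 17 had fewer than 10 UMIs of the smooth muscle markers Myh11, Acta2, Cnn1, Tagln and Lmod1, against 1 of 4141 in PBS. Markers of other cell types were higher too, with the T cell list at 128 CPM in LCWE and 0.355 in PBS, the erythroid list at 1223 and 39.6 CPM and the neutrophil list at 259 and 2.58 CPM. The 10 strong LCWE cells of the class held 66.5% of its 36-gene UMIs and had 2804 CPM of the T cell list. Without the cells low in smooth muscle markers the sum was 336 CPM in 76 LCWE cells and 164 CPM in 4140 PBS cells, 2.05-fold (1.81 to 2.31), and 15 of 29 members passed 2-fold upward and 0 downward, beside 11.3% and 3.49% of all genes. In the cells kept, Isg15 was 52.8 and 13.4 CPM, 3.94-fold higher (2.83 to 5.36).

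To find cells with a strong response, every cell was thinned to 1500 UMIs, and a cell was called strong when at least 8 of them came from the 36 genes. This class is a range of a score, not a cell type, and 55 LCWE cells sat at 8 with 83 just below at 7. In LCWE 245 of 5091 cells passed (4.81%, 4.24 to 5.44), and in PBS 10 of 5386 (0.186%, 0.0891 to 0.341). Applied without thinning, to 8 per 1500 of all UMIs, the shares were 3.85% and 0.111%. The strongest cell, in Mono1, had 113 of 1500.

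The share of strong LCWE cells was 30 of 142 in the Eosinophil-annotated class (21.1%), 7 of 62 in Neutrophil (11.3%), 10 of 93 in VSMC_1 (10.8%), 26 of 281 in Mono1 (9.25%) and 25 of 282 in Mac1 (8.87%). Fibroblasts had 39 of 813 (4.80%, 3.43 to 6.50) and activated CD8 T cells 16 of 294 (5.44%). Blood endothelial cells had 2 of 239 (0.837%), and plasmacytoid dendritic cells 0 of 47, which by the limit of 3 cells allows up to 6.38%. Proliferating T cells had 0 of 65, which by the same limit allows up to 4.62%. In PBS, fibroblasts had 5 of 868 (0.576%) and T and NK cells 0 of 75, which by that limit allows up to 4%.

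**Figure D4:**
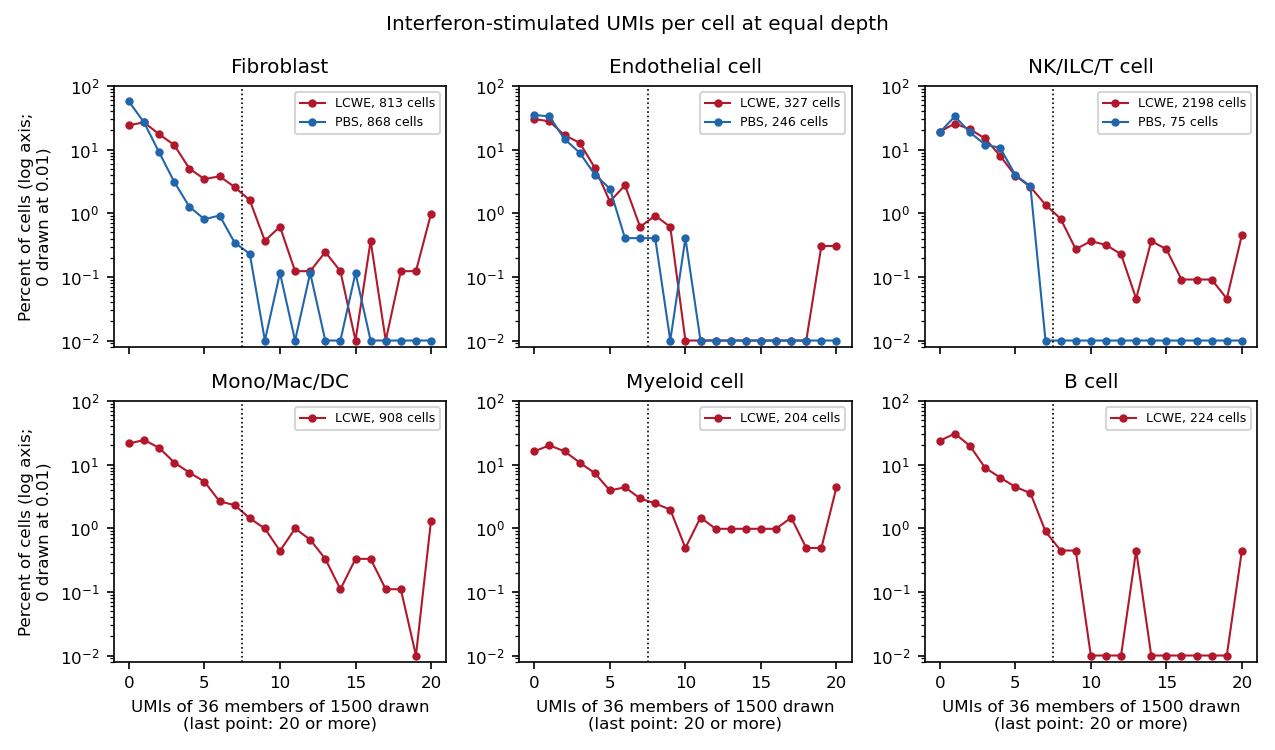
Percent of cells (vertical log axis, with 0 drawn at 0.01) by the number of UMIs from the 36 genes among 1500 thinned UMIs (horizontal axis, last point 20 or more), in broad classes, for LCWE in red and PBS in blue where it has at least 50 cells. Cells right of the dotted line have a strong response. Over all classes of each library, 245 of 5091 LCWE cells and 10 of 5386 PBS cells have one.

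Strong cells held 4.48% of LCWE UMIs but 28.0% of its 36-gene UMIs. T and NK cells made up 31.0% of them (43.2% of all LCWE cells), monocytes, macrophages and dendritic cells 26.5% (17.8%), fibroblasts 15.9% (16.0%) and the broad myeloid class of Neutrophil and Eosinophil-annotated cells 15.1% (4.01%). Pooled over all classes, strong cells were not deeper than the rest: the median was 5284 UMIs per cell against 5513.5. The pooled median of the deposited doublet score was 0.0334 against 0.0342. Within single classes both went either way. Median depth was 24401 against 19846.5 UMIs in VSMC_2 and 2692 against 3653.5 in naive CD4 T cells. The doublet score was 0.0326 against 0.0168 in naive CD4 T cells and 0.0115 against 0.0473 in the Eosinophil-annotated class. A strong cell showed a median of 8 different members.

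Different genes filled the score in different cells. Isg15 gave 32.6% of the 36-gene UMIs of strong Eosinophil-annotated cells. In strong fibroblasts Ifit1 led with 846 UMIs (19.0%), then Isg15 (16.8%) and Rsad2 (10.7%). In strong NK cells Epsti1 led (11.3%).

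The 39 strong fibroblasts all lay in groups 2 (35 of 525 cells) and 4 (4 of 129), with 0 of 159 in the shared groups. They carried fewer neutrophil-list UMIs than the other fibroblasts (1.54 against 4.57 per cell) and like numbers from the erythroid list (13.3 and 13.9). The monocyte list stood at 20.3 against 10.5 per cell, of which Plac8 made 19.8 and 9.97. Ccr2 (0.410 against 0.243 per cell) and Fcgr1 (0.0769 against 0.0336) were also higher in the strong cells, on 16 and 3 UMIs. Chil3 (0.0256 against 0.0788) was lower, and Ly6c2 was at 0 UMIs against 0.136 per cell. The part of monocyte RNA was not tested. Without the strong cells of both libraries the fibroblast 36-gene sum was 1424 CPM in LCWE and 532 CPM in PBS. By contrast, all 10 strong LCWE cells of VSMC_1 had only 0 to 3 smooth muscle marker UMIs.

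Genes that took no part in choosing the strong cells were then compared between 220 strong and 3725 other LCWE cells of 14 classes, with the expected count built class by class. Cells of 1 library are not replicates, so the ratios are descriptions. Cxcl10, a T cell attracting chemokine, was 16.5 times its expected count (15.8 to 17.3) and higher in 14 of 14 classes. In Mono1 it was 2410 CPM in strong and 89.0 CPM in other cells, and in fibroblasts 714 and 103 CPM.

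Other interferon-responsive genes followed. The guanylate-binding protein gene Gbp2 was 5.40 times its expected count (4.95 to 5.88) and higher in 14 of 14 classes. In fibroblasts Gbp2 stood at 322 CPM in strong and 79.0 in other cells, and in VSMC_2 at 700.1 and 33.5. The GTPase gene Iigp1 was 7.76 times expected, higher in 11 of 14. Of the 3 members left out of the score, Bst2 was 2.68 times (2.53 to 2.85), Ifi27l2a 2.23 times (2.15 to 2.31) and Ifitm3 1.74 times (1.69 to 1.78), each higher in 13 of 14 classes.

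Most GTPase genes that interferon-gamma also induces were higher as well: Irgm1 was 7.23 times expected, Igtp 5.70, Irgm2 4.69, Gbp3 4.57 and Gbp7 3.84, each in 14 of 14 classes. Gbp5 was 6.76 times expected, higher in 13 of 14 classes, and Gbp4 4.17 times, higher in 12. The chemokine gene Cxcl9, also of the gamma list, was 2.95 times expected (2.39 to 3.60), higher in 5 classes and lower in 4. The receptor chains, Ifng and some other genes of the gamma list lay nearer to 1. Ifnar1 was 1.10 times expected (0.913 to 1.31), Ifnar2 0.993 (0.841 to 1.16), Ifng 1.08 (0.826 to 1.39) and Irf1, an early interferon-gamma target, 1.06 (0.924 to 1.21). Ciita, the gamma-driven master switch of class II genes, was 0.553 (0.265 to 1.02) on 10 UMIs. Socs1, a feedback inhibitor, was 1.92 times expected (1.64 to 2.23).

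**Figure D5:**
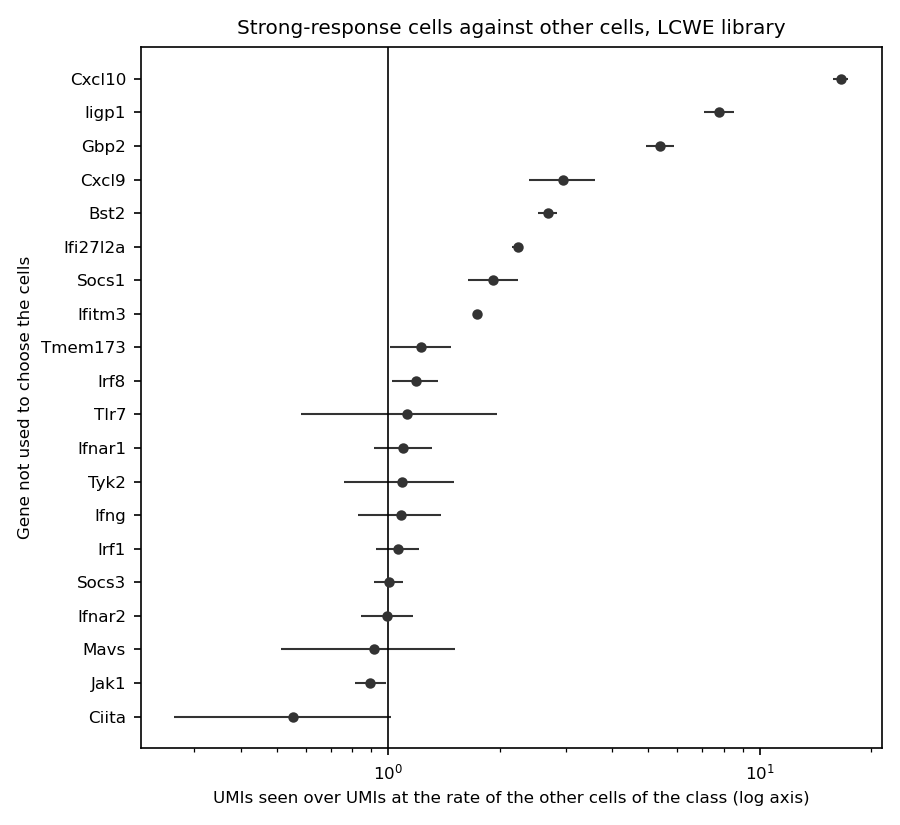
Observed over expected UMIs in strong against other LCWE cells over 14 classes, on a log axis with 95% counting intervals, for genes not used to choose the cells. Cxcl10 (16.5), Iigp1 (7.76) and Gbp2 (5.40) lie far above 1, and Ifnar1 (1.10), Ifnar2 (0.993) and Irf1 (1.06) lie near it.

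The wider pathway in fibroblasts moved in both directions. Of 4 receptors and kinases 0 were at least 2-fold higher and 0 lower, beside 10.4% and 7.31% of all genes, a count too small to tell from those shares. Among the factors and regulators Irf5, Irf8 and Ptpn6, genes better known in leukocytes, were higher, at 3.61 (1.94 to 7.30), 3.38 (2.39 to 4.91) and 16.8 (6.36 to 62.6). Marker lists of leukocytes were also higher in these LCWE barcodes, and the part of RNA from other cells in these ratios was not tested. The feedback inhibitors were lower, Socs1 at 46.0 and 145 CPM (ratio 0.317, 0.283 to 0.355) and Socs3 at 287 and 694 CPM (0.414, 0.395 to 0.435). Of 8 nucleic acid sensors and adaptors measured 2 were higher beside 10.4% of all genes, Tmem173 (STING) at 3.49 (2.64 to 4.69) and Ikbke at 2.44 (1.80 to 3.36).

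On the interferon-gamma side 5 of 14 measured genes were at least 2-fold higher in fibroblasts and 1 lower, beside 10.4% and 7.31% of all genes. Cxcl9, a chemokine gene that interferon-gamma induces, was 33.6 CPM in LCWE and 3.62 in PBS (9.28, 6.03 to 15.01), and Irf1 was 103 and 212 CPM (0.485, 0.446 to 0.527). In blood endothelial cells 1 of 14 was higher and 6 were lower, beside 11.5% and 6.36% of all genes. There Cxcl10 had a ratio of 3.08 (1.65 to 6.26), and the lower ones were Irf1 (0.392), Gbp5 (0.310), Gbp7 (0.413), Iigp1 (0.489), Irgm2 (0.302) and Igtp (0.317). Apart from Irf1 these encode guanylate-binding or immunity-related GTPases.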

How the data were processed

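The deposited matrix holds raw UMI counts per gene and cell, and the authors' cell table gives the class names, the total counts, the percent of mitochondrial UMIs and a doublet score, whose caller is not given in the sources used here. Libraries came from the 10x Genomics 3′ kit, per the labels' protocols, and Cell Ranger 3.0.2 and the mm10 build are named in the submitters' processing notes. No cells were removed here. The 8 cell barcodes found in both libraries were kept, and all 293335046 entries of the single tables equalled the pooled matrix. Barcodes with a high doublet score were kept too.

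Levels are UMIs of a gene or list per 1000000 UMIs of the class. Intervals are exact 95% Poisson (levels), conditional binomial (ratios) and Clopper-Pearson (shares), and cover counting error only. For a share of 0 the limit given is 3 cells of the total. Ratios were compared for genes with at least 20 UMIs over both libraries. A gene counted as 2-fold different when the ratio with each count raised to at least 3 UMIs passed 2, and, a condition added after the data were seen, when the ratio as counted passed it too. Strong cells were called on cells thinned to 1500 UMIs (seed 1). The scripts were tested on simulated data.

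The members, role groups and pathway lists were chosen with earlier results of these data known. In each role group the 3 members with the most UMIs, and the one with the highest fibroblast ratio, are given in full; other members appear by range, count or leading class. Genes outside the lists were named by their rank correlation with the sums over 21 classes. Fibroblast groups (2000 genes, 30 principal components, 15 neighbours, Leiden resolution 0.3) left out every gene of the interferon lists, and a group was shared with at least 20 PBS cells. Near-identical copies (Ifit3 and Ifit3b, Ifit1 and Ifit1bl1, Oas1a and Oas1g, Slfn8 and Slfn9, Ifi27l2a and Ifi27l2b) may share reads, so those members are uncertain, as are Dtx3l and Parp9, whose ends overlap on opposite strands. Python 3.11.15, numpy 2.4.6, scipy 1.17.1, scikit-learn 1.9.0, igraph 0.11.9 and leidenalg 0.10.2 were used. Of the pathway genes, 1 is not reported here.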

Additional observations from a re-analysis of the deposited data

Results flagged for a closer look

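For 6 members the LCWE over PBS ratio lay on opposite sides of 1 in different classes, with counting intervals that did not reach 1. None of these differences between classes was tested, since each class has 1 library per condition, and the T and NK class of PBS held 75 cells. Epsti1 was 50.4 in endothelial cells and 26.5 in fibroblasts, but 0.801 in T and NK cells, the class with its highest level of the 3. Sp100 was 3.05 in fibroblasts, 0.747 in endothelial cells and 0.706 in T and NK cells. Ifit3 was 2.77 in fibroblasts and 7.28 in T and NK cells, on 1 PBS UMI, but 0.637 in endothelial cells. Oasl2 was 4.42 in fibroblasts and 0.649 in endothelial cells, Xaf1 2.35 and 0.743, and Ifih1 1.93 and 0.522.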

How the results depend on the processing

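No paired analysis was possible because each group has 1 library. Of 97 alternatives, 88 planned and 9 added after the data were seen, 46 stayed close to the reported value and 51 moved. Close meant within the counting interval of the reported value or, for counts of members, within 1.5-fold of it. A reversed direction could be recorded only for the LCWE over PBS ratios, and 0 of those reversed. Few cells limit T and NK in PBS (75) and VSMC in LCWE (93).

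The 39-gene sum of LCWE fibroblasts was 1801 CPM without Ifitm3, Ifi27l2a and Bst2, 4578 with cells weighted equally, 4595 thinned and 5098 in cells of at most 10% mitochondrial UMIs. For PBS fibroblasts it was 560 without the 3 genes, 1953 weighted equally and 1939 thinned. For Mono1 it was 2653, 9329 and 9376 under the same settings and 9141 in cells of at most 10% mitochondrial UMIs. For the Eosinophil-annotated class it was 3282 without the 3 genes.

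The 39-gene ratio was 2.48 in fibroblasts, 1.57 in endothelial cells, 1.38 in blood endothelial cells, 1.34 in T and NK cells and 5.01 in VSMC. Without the 3 abundant genes these became 3.22, 1.12, 1.01, 1.08 and 6.84. Divided by the median ratio of all genes they became 2.41, 1.48, 1.32, 1.54 and 4.60. Weighting cells equally gave 2.34 in fibroblasts, 1.72 in endothelial cells and 9.27 in VSMC. Without strong cells the ratios were 2.32 in fibroblasts, 1.53 in endothelial cells, 1.18 in T and NK cells and 3.06 in VSMC. In fibroblasts the ratio was 1.90 without Chl1 cells and 1.41 in shared groups, where the count of members fell from 30 to 1. In VSMC it was 5.77 in cells of at most 10% mitochondrial UMIs and 2.80 in cells with at least 10 marker UMIs, where the count went from 30 to 15. The T and NK count of 7 became 14 at 1.5-fold, 13 with a floor of 1 UMI and 12 after division by the median ratio.

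Strong shares followed the cut. At 5 UMIs they were 14.6% of fibroblasts, 17.5% of monocytes, macrophages and dendritic cells, 29.4% of the myeloid class and 11.3% of T and NK cells. At 12 UMIs they were 2.09%, 3.30%, 11.8% and 1.68%, and with all 39 members 34.3%, 48.1%, 33.3% and 9.28%. Reported values were 4.80%, 7.16%, 18.1% and 3.46%, the last being 2.73% unthinned.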

Other observations

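Genes outside the lists were also compared between strong and other LCWE cells, and the ones named here were chosen after their values were seen. Ifit3b was 30.9 times its expected count, Ifi47 5.45, Ddx60 5.45, Tor3a 5.32 and Rnf213 5.17, each higher in 14 of 14 classes. Ifit1bl1 was 33.4 times expected and higher in 10 of 14. Ifit3b and Ifit1bl1 may share reads with Ifit3 and Ifit1, which the score used. Their ratios are therefore not independent of the choice of cells. Of the pathway list, Usp25, a deubiquitinase gene, was 2.19 times expected and higher in 14 of 14.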
